A study of Mus musculus with 11 samples.

Results

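Neutrophils of the adult mouse kidney were examined in 2 models of kidney fibrosis. They were chosen by their transcripts, among barcodes with at least 500 UMIs (unique molecular identifiers, each standing for 1 captured transcript), at least 200 genes and at most 30% mitochondrial UMIs. A neutrophil had to show at least 3 of the 7 genes *Cxcr2*, *Csf3r*, *Retnlg*, *Mmp9*, *Hdc*, *S100a8* and *S100a9*, with at least 1 of *Cxcr2*, *Csf3r*, *Retnlg* and *Hdc*. It also had to show fewer than 2 of the macrophage genes *C1qa*, *C1qb* and *C1qc* and none of *Cd3e* (T cells), *Cd79b* (B cells) and *Epcam* (epithelium). The rule found 291 neutrophils among 45454 kept barcodes, of which 239 came from obstructed kidneys, 47 from ischemic kidneys and 5 from controls.

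Neutrophils are short-lived granulocytes made in the bone marrow. They slow on endothelial selectins, bind adhesion molecules, and follow chemokines that CXCR2 reads, while CSF3R receives the growth factor that sustains their production. The earliest granule proteins are made in the marrow, so mature cells carry little RNA for them. In kidney injury they are best known from the first days after ischemia.

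Kidneys came from male C57Bl/6 mice that were 10 weeks old at surgery. In unilateral ischemia/reperfusion (UIR) the left renal pedicle was clamped for 30 minutes at 37°C. In unilateral ureteral obstruction (UUO) the left ureter was tied irreversibly, and both models were collected at day 28. Controls were age-matched naive males of this strain, and the sources name no transgene or deletion in any group. There were 5 control libraries (Ctrl, N1, N2, AN1, AN2), 3 UIR libraries (UIR, UIR1, UIR2) and 3 UUO libraries (UUO, UUO1, UUO2). The controls were run in 3 batches, and the batch of the injured kidneys is not given in the sources used here, so batch and model cannot be told apart.

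Libraries held 49503312 to 117043590 UMIs and 2010 to 8072 kept barcodes. Of 45186 distinct barcode sequences kept, 266 occurred in more than 1 library, and 0 did so as a neutrophil in both. No doublets were removed in the main counts. In every injured library *Cxcr2*, *Csf3r*, *Retnlg* and *S100a8* were all detected among the neutrophils, which the rule largely fixes. In UUO neutrophils a set of 5 eosinophil genes had 267 UMIs, at 261, 248 and 464 CPM (counts per 1000000 UMIs) in UUO, UUO1 and UUO2 beside 7.41, 7.01 and 8.25 CPM in free RNA, the near-empty barcodes of 10 to 100 UMIs. Of these, 265 were of *Siglecf*, *Ccr3* and *Il5ra* had 1 each, and the granule genes *Prg2* and *Epx* were at 0. There were 14 UMIs over 6 T and NK cell genes, 3 over 4 B cell genes and 17 over 6 basophil and mast cell genes. The rule required *Cd3e* and *Cd79b* to be 0, which partly fixes the lymphocyte sums, and limited the *C1q* genes of the macrophage set. Other sets held 511 UMIs over 7 dendritic cell genes, 255 over 6 endothelial genes, 127 over 8 monocyte genes and 123 over 5 stromal genes. The dendritic set stood at 1322, 578 and 411 CPM in UUO, UUO1 and UUO2 and the stromal set at 533, 27.5 and 58.7 CPM. Macrophage genes had 757 UMIs over 9 genes, at 784 to 1101 CPM, below the 6317 to 8825 CPM of free RNA. The endothelial set stood at 1244, 50.4 and 55.9 CPM in UUO, UUO1 and UUO2, beside 690, 416 and 488 CPM in free RNA. It lay above free RNA in the library UUO only. A set of 6 proximal tubule genes stood at 1884, 2073 and 583 CPM in the neutrophils of UIR, UIR1 and UIR2. Free RNA held that set at 7493, 2488 and 3669 CPM there. In UUO, UUO1 and UUO2 the neutrophils held it at 144, 22.9 and 92.2 CPM, beside 3471, 1595 and 2688 CPM in free RNA. The 6 genes of other tubule segments stood at 496, 233 and 219 CPM in UIR and 66.7, 41.3 and 69.8 CPM in UUO neutrophils.

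The genes of the rule were high by construction and are described without a test. *S100a8* stood at 34989.5, 34175 and 36537 CPM of the summed neutrophil UMIs in UUO, UUO1 and UUO2, and *S100a9* at 25989, 35624 and 37534 CPM. These genes encode the subunits of calprotectin, the abundant cytosolic protein of neutrophils. In UIR, UIR1 and UIR2 *S100a8* stood at 63857, 25409.9 and 13637 CPM, a wider range than in UUO. *Cxcr2* stood at 1039, 1674 and 1232 CPM in the UUO libraries and 1884, 2282 and 1847 CPM in the UIR libraries. *Csf3r* stood at 1339, 1889 and 1947 CPM in UUO and 3074, 2515 and 2479 CPM in UIR. The UUO values of both receptor genes lay below all 3 UIR values, but the rule that chose the cells uses both genes. Neither was among the genes called between the models below. The gelatinase gene *Mmp9* ranged from 1400.02 to 1784 CPM in UUO, and *Hdc*, which makes histamine, from 416 to 738 CPM.

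How much of the rule a cell met varied. All 7 genes were shown by 4 of 5 control neutrophils. In UIR, UIR1 and UIR2 they were shown by 5 of 6, 5 of 22 and 4 of 19. In UUO, UUO1 and UUO2 they were shown by 9 of 60, 19 of 76 and 17 of 103. Just inside the rule were 29 UUO and 3 UIR neutrophils with 3 of the 7. Just outside it were 37 UUO and 5 UIR barcodes with 2 of the 7 that met the other criteria. These include at least 1 of *Cxcr2*, *Csf3r*, *Retnlg* and *Hdc*, so barcodes with *S100a8* and *S100a9* alone were not counted. A further 36 UUO and 3 UIR barcodes met the positive criteria and were left out for a macrophage, lymphocyte or epithelial gene.

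*Retnlg*, a resistin-like secreted protein of blood neutrophils, differed most between injured libraries among the 7 genes. The 5 control neutrophils held 72 UMIs, or 7853 CPM (exact 95% Poisson interval 6145 to 9890.1). In UIR, UIR1 and UIR2 it stood at 9122, 1351 and 462 CPM, and in UUO, UUO1 and UUO2 at 389, 1431 and 1198 CPM. The library UIR, with 6 neutrophils, was the highest of the injured libraries, and the other 5 did not exceed 1431 CPM. When each cell was drawn down to 1000 UMIs, *Retnlg* was found in 4 of 5 control neutrophils. It was found in 4 of 5, 4 of 19 and 4 of 19 neutrophils of UIR, UIR1 and UIR2. In UUO, UUO1 and UUO2 the counts were 11 of 58, 16 of 73 and 19 of 101. It was found in 1 of 2736 macrophages and 0 of 624 monocytes of UUO, both gated by markers. This depth left out 4 UIR and 7 UUO neutrophils. Without thinning, 25%, 30.3% and 24.3% of the neutrophils of UUO, UUO1 and UUO2 had the transcript, and the 5 richest cells held 74.3%, 61.2% and 55.9% of its UMIs.

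The first question was whether the injured kidneys held more neutrophils than the controls. They made up 0.0284%, 0%, 0.0470%, 0.0944% and 0.0469% of kept barcodes in Ctrl, N1, N2, AN1 and AN2. The N1 value was 0 of 2010 barcodes, which allows a share of up to 0.149%. In UIR, UIR1 and UIR2 the share was 0.135%, 0.273% and 0.318%, and in UUO, UUO1 and UUO2 it was 1.22%, 1.29% and 2.44%. Every UIR library lay above every control, and every UUO library above every UIR library. Exact 95% binomial intervals, which cover counting error only, ran from 0.0496% to 0.496% over the UIR libraries and from 0.930% to 2.95% over the UUO libraries. Over the controls they ran from 0% in N1 to 0.341% in AN1. The AN1 interval, 0.0114% to 0.341%, overlapped that of every UIR library. The control mean was 0.0433% ± 0.0344 (SD, n = 5). The injured kidneys averaged 0.242% ± 0.0953 after UIR and 1.65% ± 0.686 after UUO (SD, n = 3 each). The mean was 38.03-fold higher in UUO and 5.58-fold higher in UIR than in control, each with a two-sided exact permutation p of 0.0357, the smallest that 5 against 3 libraries allow, and an adjusted p of 0.0536 over 3 contrasts. UUO exceeded UIR 6.81-fold (exact permutation p = 0.1, the smallest for 3 against 3). No contrast passed 0.05 after adjustment. These folds rest on few control cells and moved with the filters. Without proximal tubule cells in the denominator UUO was 12.9-fold and UIR 2.37-fold over control, at a mitochondrial limit of 15% 16.8-fold and 2.62-fold, and at a limit of 50% 81.6-fold and 9.80-fold. UIR and control libraries overlapped without proximal tubule cells (exact permutation p = 0.0714), at the 15% limit (exact permutation p = 0.107) and with barcodes down to 250 UMIs (3.98-fold, exact permutation p = 0.0714), while UUO lay above control in each.

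The denominator changed with injury, so the share among immune cells was examined next. Immune barcodes, those with *Ptprc* or at least 2 *C1q* genes and the neutrophils themselves, made up 6.94% ± 1.90 of the kept barcodes of control kidneys (SD over 5 libraries). The corresponding values were 44.3% ± 7.04 for UIR and 60.7% ± 2.99 for UUO (SD over 3 libraries each). Neutrophils were 0.671%, 0%, 0.826%, 1.20% and 0.562% of immune barcodes in the controls, 0.360%, 0.623% and 0.617% in the UIR libraries and 2.12%, 2.03% and 3.99% in the UUO libraries. The UIR libraries lay within the control range, with a difference of means of -0.118 percentage points (exact permutation p = 0.714). The UUO libraries lay above all others, 4.16-fold over control (exact permutation p = 0.0357, adjusted p = 0.107) and 5.09-fold over UIR (exact permutation p = 0.1, adjusted p = 0.150). At a mitochondrial limit of 15% UUO and control overlapped (2.97-fold, exact permutation p = 0.107). With barcodes of high doublet score removed the fold of UUO over control was 6.81 and, over 10 neighbours, 7.19. Control values rest on 0 to 2 neutrophils per library, and the direction of the difference between UIR and control turned to 0.0185 percentage points without AN1, 0.0305 at a mitochondrial limit of 50% and 0.178 (1.45-fold) with the doublet score over 10 neighbours.

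**Figure D1:**
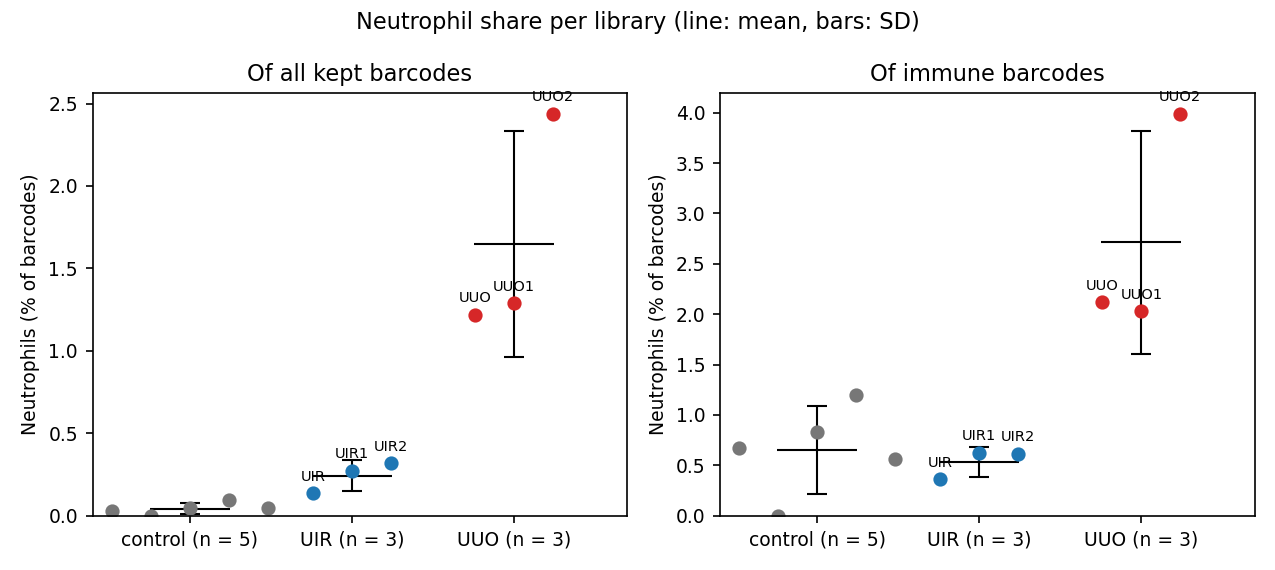
Neutrophils as a percentage of kept barcodes (left) and of immune barcodes (right), with 1 point per library and the mean and SD of each group. UUO is highest in both panels, while UIR is above control on the left (0.242% against 0.0433%) and within the control range on the right.

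Several properties of the libraries also differed, and their part in these shares was not tested. The median neutrophil had 1864 to 2184 UMIs in UIR libraries and 2402 to 3030.0 in UUO libraries, beside 1181 to 2372 in controls that had any. Its mitochondrial share was 6.06%, 11.6% and 7.10% in UIR, UIR1 and UIR2 and 2.20%, 2.06% and 2.40% in UUO, UUO1 and UUO2. In Ctrl, N2, AN1 and AN2, with few cells each, that share was 2.54%, 9.49%, 9.91% and 20.5%. Free RNA held *S100a8* at 30.8, 442 and 755 CPM in the UIR libraries and 51.2, 172 and 248 CPM in the UUO libraries, and 23.9, 415, 594, 0.679 and 0.461 CPM in Ctrl, N1, N2, AN1 and AN2. A rule without *S100a8* and *S100a9* left the means at 0.0527%, 0.256% and 1.69% in control, UIR and UUO. With each barcode drawn down to 500 UMIs, UUO was 28.1-fold and UIR 4.60-fold over control as a share of kept barcodes. As a share of immune barcodes UUO was then 2.81-fold and UIR 0.715-fold of control, and UUO was 3.92-fold over UIR. After the 7.5% of barcodes with the highest doublet scores were removed, the difference between UIR and control was 0.0668 instead of 0.199 percentage points and the libraries overlapped (exact permutation p = 0.536). That score compared each barcode with 58, 78 and 67 neighbours and removed 5 of 6, 2 of 22 and 19 of 19 in UIR, UIR1 and UIR2. UUO then exceeded UIR 17.7-fold of kept and 12.1-fold of immune barcodes. With 10 neighbours, chosen after seeing the data, it removed 1 UIR neutrophil, and the difference was 0.223 percentage points.

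Beyond the rule, UUO neutrophils carried transcripts that other kept barcodes nearly lacked. By ratio of neutrophil CPM to the CPM of all other kept barcodes, the 15 leading genes of at least 100 CPM in every UUO library ran from *Stfa2l1* (1731-fold) to *Hcar2* (68.6-fold). The cells were chosen for neutrophil transcripts, so these ratios are a description. The set held the stefin gene *Stfa2l1* with its relative *Gm5483*, the secreted *Wfdc21*, the innate receptors *Trem1* and *Clec4e*, and *Slc7a11*, which imports cystine. The interleukin-1 family gave *Il1f9*, the decoy receptor *Il1r2* and the receptor antagonist *Il1rn*. The others were *Irg1*, which makes itaconate, *Slfn4*, *Siglecf*, *Trim30b*, *4833407H14Rik* and *Hcar2*, a receptor for ketone bodies and niacin.

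Neutrophils held a larger part of *Il1b* UMIs than of all UMIs in obstructed kidneys. They carried 0.539%, 0.495% and 1.10% of all UMIs of kept barcodes in UUO, UUO1 and UUO2. For *Il1b*, which encodes the inflammatory cytokine interleukin-1β, the shares were 13.7%, 30.3% and 29.1%. For *S100a8* they were 87.1%, 80.4% and 86.9%, which is partly fixed because *S100a8* is a gene of the rule. The 5 richest neutrophils held 50.5%, 51.2% and 25% of the neutrophil *Il1b* UMIs of these libraries. *Il1b* stood at 2399 ± 1165 CPM (SD, n = 3) in UUO neutrophils, 173 ± 46.9 in macrophages and 81.4 ± 8.86 in monocytes. Its antagonist *Il1rn* stood at 859 ± 156 CPM in the same neutrophils and 18.6 ± 5.70 in macrophages. *Csf1*, the growth factor of macrophages, stood at 604 ± 118 CPM in neutrophils and 14.5 ± 3.43 in macrophages. Not every myeloid gene was higher: *Lyz2*, which encodes lysozyme, stood at 1433 ± 574 CPM in neutrophils and 10395 ± 1643 in macrophages.

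The 11 gene lists held 174 genes of the files, of which 122 reached a mean of 50 CPM in UUO neutrophils. Azurophil granule genes, which marrow promyelocytes transcribe, were nearly absent. *Mpo* and *Ctsg* had 0 of 756078 UMIs, *Elane* and *Ms4a3* had 1 each and *Prtn3* had 25. Among specific granule genes *Camp* had 0, *Ngp* 1 and *Ltf* 36 UMIs. In free RNA of UUO the means were 26.2 CPM for *Mpo*, 34.05 CPM for *Ctsg* and 59.5 CPM for *Camp*, above their level in these cells, whose 0 counts allow up to 3.97 CPM. The protease inhibitor *Slpi* stood at 906, 1412 and 888 CPM in UUO, UUO1 and UUO2, and *Lcn2*, which binds siderophores, at 278, 1082 and 511 CPM. The *Lcn2* value of the library UUO lay below the mean free RNA level of the UUO libraries. Of the 8 cell-cycle genes 2 reached 50 CPM, and *Mki67* and *Top2a* had 3 and 4 UMIs in the 239 cells. *Il10*, *Dcstamp* and *Ccnb1* were at 0.

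Receptors were broadly present, with 29 of 31 list genes at 50 CPM. The chemokine receptor *Ccr1* stood at 778, 1201 and 824 CPM in UUO, UUO1 and UUO2. *Cxcr4*, which retains neutrophils in the marrow, stood at 522, 499.8 and 307 CPM, and the scavenger receptor *Msr1* was at 0. All 6 NADPH oxidase genes, whose product makes superoxide, reached 50 CPM. Their membrane subunits were uneven, since *Cyba* stood at 1784 ± 86.8 CPM (SD, n = 3) in UUO neutrophils and 1530.2 ± 164 in macrophages, and *Cybb* at 60.6 ± 32.8 and 555 ± 84.2. *Mcl1*, the survival factor on which neutrophils depend, stood at 1761, 2403 and 1751 CPM. *Alox5ap*, needed for leukotriene synthesis, stood at 1222, 1279 and 964 CPM. *Cebpb* led the transcription factors with 2161, 3233 and 1922 CPM, while *Irf8*, a monocyte factor, had 9 UMIs. Among tissue neutrophil genes *Ctsd* and *Cstb*, both of the lysosomal protease system, stood at 1594, 1623 and 1486 and at 1250.02, 848 and 1154 CPM.

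**Figure D2:**
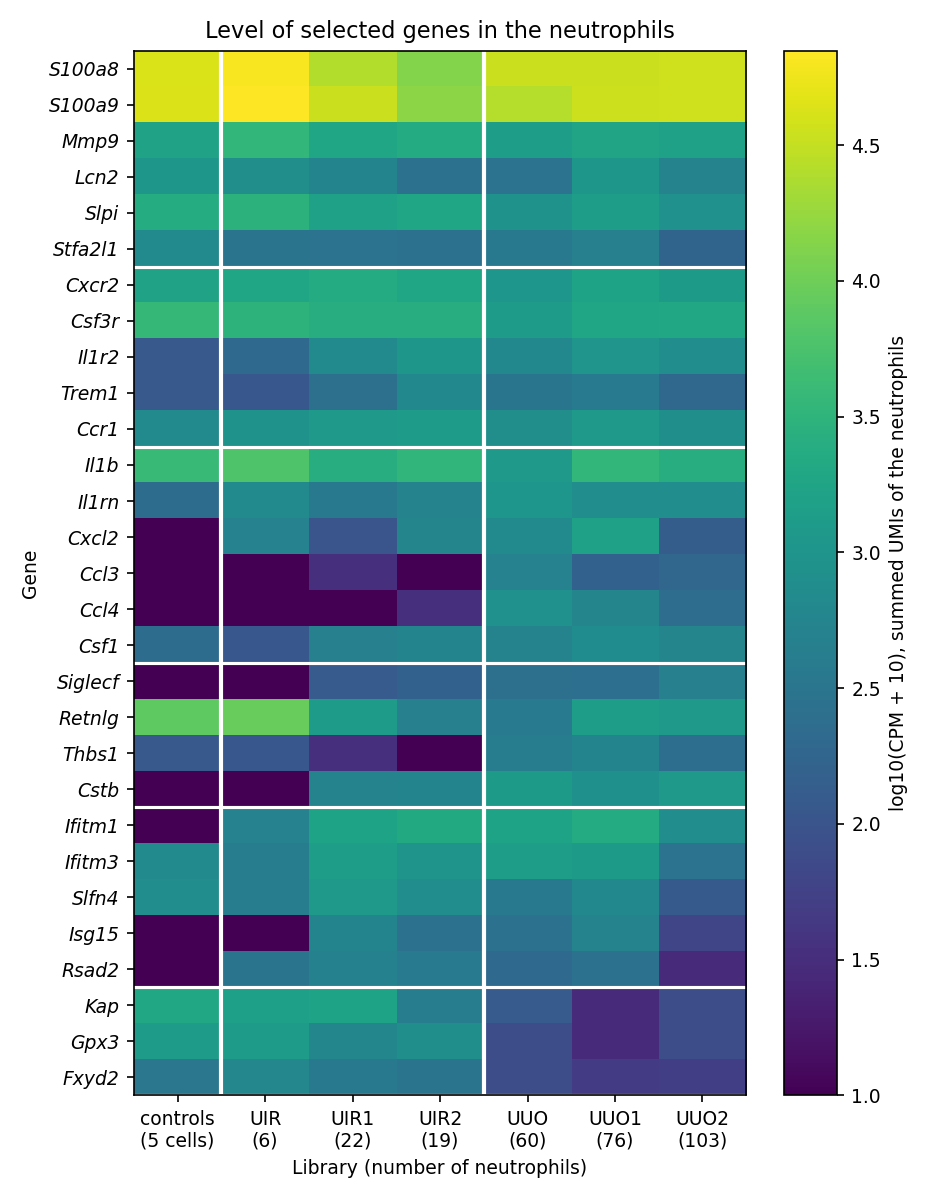
Level of 29 genes in the summed UMIs of the neutrophils, as log10(CPM + 10), with 1 row per gene and 1 column for the 5 control cells and for each injured library. *S100a8* and *S100a9* are high in all columns, *Ccl3* and *Ccl4* are seen mainly in the UUO columns, and *Kap*, *Gpx3* and *Fxyd2* are lower there than in the UIR columns.

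The next question was whether neutrophils differed between the models. Libraries with at least 10 neutrophils were compared, UIR1 and UIR2 against the 3 UUO libraries. Of 3218 genes tested, 2 were higher and 14 lower in UUO by edgeR's quasi-likelihood test at an adjusted p under 0.05, or 0.497% of genes. Of 122 list genes tested, 1 passed (*Ccl4*). The UIR arm held 84075 UMIs and the UUO arm 756078.

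The genes higher in UUO were *Ccl4*, a chemokine that attracts monocytes and lymphocytes, and *Thbs1*, which encodes the matrix protein thrombospondin-1. *Ccl4* stood at 883, 555 and 226 CPM in UUO, UUO1 and UUO2 and at 0 and 24.3 CPM in UIR1 and UIR2. It rested on 361 UMIs against 1, a ratio of 40.1 with a 95% counting interval of 7.16 to 1589.9 (edgeR log2 fold change 5.39, SE 1.05, adjusted p = 0.0308). *Thbs1* stood at 417, 541 and 235 CPM in UUO, UUO1 and UUO2 and at 23.3 and 0 CPM in UIR1 and UIR2. It rested on 277 UMIs against 1, a ratio of 30.8 with an interval of 5.48 to 1221 (edgeR log2 fold change 4.90, SE 0.87, adjusted p = 0.0146). Both calls were lost without the library UUO (edgeR adjusted p = 0.0636 for *Ccl4* and 0.0601 for *Thbs1*). They were also lost without the mitochondrial genes in the table (edgeR adjusted p = 0.121 and 0.0688). Neither call held without UIR1 or without UIR2. Such a fit keeps 1 UIR library, assumed to vary like the UUO libraries, so calls lost there cannot be read as weaker differences. *Ccl4* was also lost at a mitochondrial limit of 15% (edgeR adjusted p = 0.0569), and *Thbs1* by DESeq2 (adjusted p = 0.0724).

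Few cells carried these transcripts, and a few UUO neutrophils were far deeper than the rest. More than 7000 UMIs were found in 3, 3 and 4 neutrophils of UUO, UUO1 and UUO2, with at most 20497, 9186 and 9549, and in no neutrophil of UIR or control. They held 22.8%, 11.4% and 8.89% of the neutrophil UMIs of these libraries, no doublets were removed, and their part in the pooled levels was not tested. In a fit without them, chosen after seeing the data, the adjusted p by edgeR was 0.0154 for *Ccl4* and 0.0809 for *Thbs1*, whose call was lost. At 1000 UMIs per cell *Ccl4* was found in 9 of 58, 5 of 73 and 11 of 101 neutrophils of UUO, UUO1 and UUO2 and in 1 of 43 of UIR, beside 3.03% of UUO macrophages and 0.232% of tubular cells outside the proximal tubule. The 5 richest cells of each UUO library held 87.4%, 96.7% and 85.2% of its *Ccl4* UMIs. *Thbs1* was found in 7 of 58, 6 of 73 and 10 of 101 neutrophils and in 1 of 43 of UIR, and the 5 richest cells held 93.3%, 87.3% and 67.9%. *Ccl3*, a relative of *Ccl4* named after its values were seen, stood at 500.01, 147 and 173 CPM in UUO, UUO1 and UUO2 and at 23.3 and 0 CPM in UIR1 and UIR2 and did not pass (edgeR log2 fold change 4.35, SE 1.19, adjusted p = 0.226). Of the UUO neutrophils 18 also met the marker count of the endothelial, stromal or monocyte gate or showed proximal tubule markers. The latter meant at least 2 of *Slc34a1*, *Lrp2*, *Slc5a12* and *Miox*. Endothelial markers summed to 1244, 50.4 and 55.9 CPM in UUO, UUO1 and UUO2. Without such cells the adjusted p by edgeR was 0.0238 for *Ccl4* and 0.0800 for *Thbs1*. That fit kept cells with 1 of the *C1q* genes of macrophages, which were 66 of 239 UUO and 3 of 47 UIR neutrophils. Their part in these calls was not tested.

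The 14 genes lower in UUO were 11 of the 13 mitochondrial genes and 3 transcripts abundant in the proximal tubule. The mitochondrial log2 fold changes ran from -2.39 to -1.73. All kept barcodes differed in the same direction. Their median mitochondrial share was 15.1% and 9.97% in UIR1 and UIR2 and 5.79%, 6.87% and 6.72% in UUO, UUO1 and UUO2. The part of this library-wide difference in the mitochondrial calls was not tested. *Kap*, which encodes an androgen-regulated kidney protein, stood at 1677 and 413 CPM in UIR1 and UIR2 and at 117, 18.3 and 69.8 CPM in UUO, UUO1 and UUO2 (edgeR log2 fold change -4.05, SE 0.60, adjusted p = 0.00297). *Gpx3*, the plasma glutathione peroxidase made in the tubule, stood at 582 and 802 CPM and 72.2, 18.3 and 69.8 CPM (edgeR log2 fold change -3.71, SE 0.43, adjusted p = 0.000368). *Fxyd2*, a subunit of the sodium pump, gave a log2 fold change of -2.78. In free RNA *Kap* averaged 3420.3 CPM over the 3 UIR libraries and 2035 CPM over the UUO libraries, and *Gpx3* 2311 and 1292 CPM. The UIR means include the library UIR, which the fit left out. In free RNA the set of 6 proximal tubule genes, which holds *Kap*, stood at 7493, 2488 and 3669 CPM in UIR, UIR1 and UIR2. In UUO, UUO1 and UUO2 it stood at 3471, 1595 and 2688 CPM. The part of free RNA in these differences was not tested. Without UIR2 the calls of *Gpx3* and *Fxyd2* were lost, and without UIR1 all calls were lost. Each of these fits keeps 1 UIR library, assumed to vary like the UUO libraries, so the lost calls cannot be read as weaker differences.

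By list, the median log2 fold change was -0.51 over 29 receptor and adhesion genes tested, -0.69 over 18 interferon-stimulated genes, 0.31 over 12 cytokine genes and 0.14 over 6 NADPH oxidase genes, beside 0.05 over all genes tested. The granule, tissue neutrophil, survival, lipid mediator, transcription factor and cell-cycle lists had medians of -0.37 to -0.08. The interferon-stimulated list was uneven within UUO, since its 22 genes summed to 9128, 10729.7 and 3925 CPM in UUO, UUO1 and UUO2, beside 11878 and 10768 CPM in UIR1 and UIR2.

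**Figure D3:**
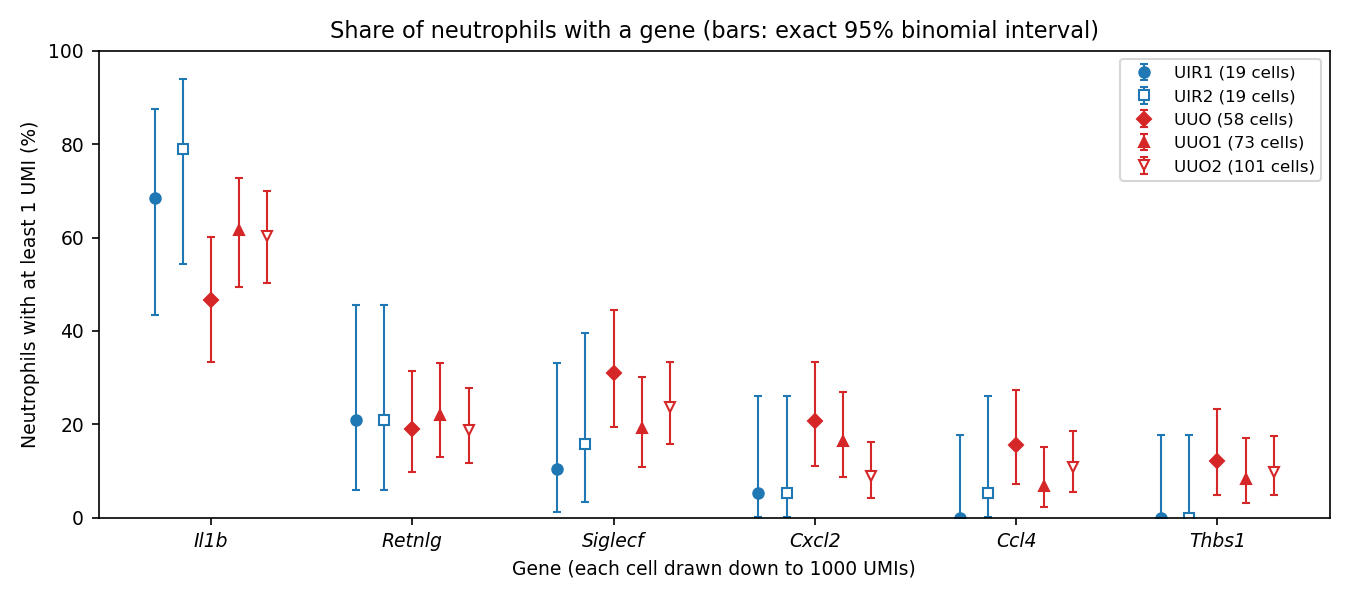
Percentage of neutrophils with at least 1 UMI of 6 genes after each cell was drawn down to 1000 UMIs, for the libraries with at least 10 neutrophils, with exact 95% binomial intervals for counting error. *Siglecf* lies at 31.03%, 19.2% and 23.8% in the red UUO libraries and at 10.5% and 15.8% in the blue UIR libraries. *Ccl4* and *Thbs1* lie below *Siglecf* in each of these libraries.

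*Siglecf* encodes a sialic acid-binding receptor that is best known from eosinophils and is also found on tissue neutrophils. It stood at 256, 248 and 461 CPM in UUO, UUO1 and UUO2 and at 116 and 146 CPM in UIR1 and UIR2, and it was at 0 in the library UIR. The 5 control neutrophils had 0 UMIs, which allows up to 327 CPM. The UUO libraries lay above UIR1 and UIR2, but the difference did not pass (edgeR log2 fold change 1.24, SE 0.47, adjusted p = 0.398). At 1000 UMIs per cell it was found in 18 of 58, 14 of 73 and 24 of 101 neutrophils of UUO, UUO1 and UUO2 and in 2 of 19 and 3 of 19 of UIR1 and UIR2. In UUO the share was 0.183% in macrophages and 0.160% in monocytes. Without thinning it was 45%, 35.5% and 47.6% of the UUO neutrophils.

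Neutrophils with and without *Siglecf* differed in other transcripts. The split was made on the same cells after values were seen, so it is given without a test. Of 56 UUO neutrophils with *Siglecf* at 1000 UMIs, 4 had *Retnlg*, and of 176 without, 42 had it. Cells counted as without include some whose *Siglecf* UMIs were lost to thinning, and *Retnlg* is a gene of the rule. Per 1000 UMIs, *Retnlg* averaged 0.278 ± 0.269 with *Siglecf* and 1.45 ± 0.538 without (SD, n = 3 libraries). *Il1b* averaged 1.31 ± 0.337 with *Siglecf* and 3.12 ± 1.32 without. *Ccl6*, a chemokine of myeloid cells, averaged 0.287 ± 0.197 with *Siglecf* and 1.20 ± 0.495 without. These 3 genes were lower with *Siglecf* in all 3 UUO libraries by UMIs, although in the library UUO the share of cells with *Il1b* was 50% against 45%. *S100a8* differed less, at 25.7 ± 8.68 with *Siglecf* and 37.7 ± 2.38 without.

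By list, 6 of 8 granule genes, 11 of 26 receptor genes and 6 of 9 cytokine genes of at least 0.1 UMIs per 1000 were lower with *Siglecf* in all 3 UUO libraries. The tissue neutrophil list had 6 of 12 lower and 1 higher, the survival list 0 of 8 lower and 2 higher, and the NADPH oxidase list 1 of 5 lower and 2 higher. Over all 1692 genes of that level 19% were lower and 18.1% higher in all 3. *Spp1*, which encodes osteopontin, had more UMIs with *Siglecf* in all 3, at 1.35 ± 0.617 with *Siglecf* and 0.444 ± 0.341 without, although in the library UUO a smaller share of cells had it (27.8% against 45%). The lysosomal enzyme gene *Ctsa*, named after its values were seen, was higher with *Siglecf* in all 3, at 0.550 ± 0.153 with *Siglecf* and 0.142 ± 0.0584 without. Free RNA of UUO held *Spp1* at 2941 CPM, more than the 673 CPM of the neutrophils.

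Interferon-stimulated genes set 1 UUO library apart, a pattern chosen after values were seen. UUO2 had the lowest sum over the 22 list genes of the 3 UUO libraries, and the library UIR had 5454 CPM. *Isg15*, a ubiquitin-like modifier, stood at 272, 514 and 53.1 CPM in UUO, UUO1 and UUO2. *Rsad2*, the antiviral enzyme viperin, stood at 194, 261 and 19.6 CPM, and *Ifit1*, which binds foreign RNA, at 144, 206 and 5.59 CPM. At 1000 UMIs per cell *Isg15* was found in 6 of 58, 17 of 73 and 4 of 101 neutrophils. The 5 richest cells held 87.8%, 50% and 63.2% of the *Isg15* UMIs and 97.1%, 82.5% and 100% of those of *Rsad2*. All 16 list genes of at least 50 CPM were lowest in UUO2 of the 3 UUO libraries, beside 27.3% of 3198 genes of that level.

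Other cells of the same libraries were then examined. UUO2 was lowest for 12 of 15 list genes in monocytes (beside 31.3% of all genes) and 12 of 13 in macrophages (32.8%). It was lowest for 10 of 15 in endothelial cells (35.9%) and 5 of 11 in tubular cells outside the proximal tubule (34.1%). In macrophages the list summed to 4774, 5239 and 3756 CPM in UUO, UUO1 and UUO2.

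**Figure D4:**
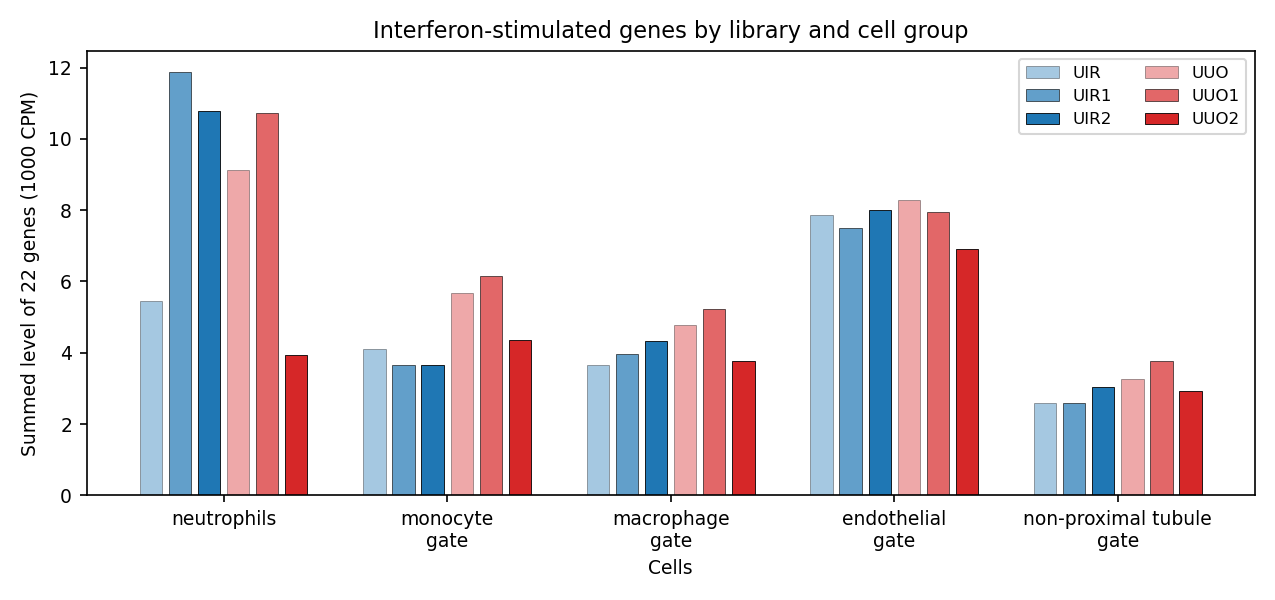
Summed level of the 22 interferon-stimulated genes, in 1000 CPM, for 5 groups of cells with 1 bar per injured library. Among the UUO libraries the neutrophil bar of UUO2 (3925 CPM) is lower than those of UUO (9128 CPM) and UUO1 (10729.7 CPM), and the gaps in other cells are smaller.

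The promoters of *Isg15*, *Rsad2* and *Ifit1* are shown because genes of this class share an interferon response element. Each line gives the 250 bases before the RefSeq start (GRCm38.p6) in the direction of the gene, with matches to the motif GAAA, any 2 bases, GAAA on either strand in capitals, where neighbouring matches can overlap.
*Isg15*, chr4:156200819-156201068, reverse strand: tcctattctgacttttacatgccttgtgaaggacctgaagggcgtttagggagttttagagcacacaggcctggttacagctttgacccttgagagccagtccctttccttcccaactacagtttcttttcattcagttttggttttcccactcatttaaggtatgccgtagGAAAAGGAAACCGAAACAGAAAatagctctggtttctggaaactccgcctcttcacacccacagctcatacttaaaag
*Rsad2*, chr12:26456453-26456702, reverse strand: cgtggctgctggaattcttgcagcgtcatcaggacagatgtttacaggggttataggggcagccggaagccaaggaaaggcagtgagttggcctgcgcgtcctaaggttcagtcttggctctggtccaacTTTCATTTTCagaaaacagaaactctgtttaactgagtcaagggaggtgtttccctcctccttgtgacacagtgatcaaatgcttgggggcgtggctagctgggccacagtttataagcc
*Ifit1*, chr19:34640639-34640888, forward strand: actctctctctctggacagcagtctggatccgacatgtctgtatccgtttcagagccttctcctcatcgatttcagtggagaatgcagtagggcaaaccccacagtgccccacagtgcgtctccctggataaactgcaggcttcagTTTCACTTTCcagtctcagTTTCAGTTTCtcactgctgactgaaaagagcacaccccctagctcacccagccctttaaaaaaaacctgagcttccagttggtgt
By symbol 18 list genes matched 19 RefSeq promoters, and 9 of these held the motif, against 978 of all 32851 promoters of that length (2.98%). A match describes these letters only, and binding was not measured.

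The last question was how other kidney cells expressed genes that recruit, hold or clear neutrophils. The list held 50 genes of the files, and the summed UMIs of 4 gated pools were fitted with edgeR over control, UIR and UUO. *Csf3*, *Il17a*, *Il6*, *Csf2* and *Cxcl3* were too low to test in any pool. Both injuries were compared with the same control libraries.

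Tubular cells outside the proximal tubule had the most calls against control of the 4 pools. Their gate was *Epcam* with fewer than 2 of *Slc34a1*, *Lrp2*, *Slc5a12* and *Miox*. It does not exclude proximal tubule cells that lost these markers, and the mix of segments in this pool was not tested. Of 30 list genes tested, 17 rose and 4 fell in UIR against control (beside 31.0% of all genes called), 20 rose and 4 fell in UUO against control (beside 40.8%), and 2 were higher in UUO than in UIR (beside 0.977%). *Cxcl1*, a ligand of CXCR2, rose from 0.728 ± 1.32 CPM (SD, n = 5) in control to 11.5 ± 4.92 in UIR and 30.02 ± 24.3 in UUO (SD, n = 3; log2 fold changes 3.73 and 5.10, adjusted p = 0.00766 and 0.000158). The UIR call is lost with a mitochondrial limit of 15% (adjusted p = 0.159). Its relative *Cxcl5* had 0 UMIs in controls and averaged 121 ± 80.7 CPM in UUO, at least 268-fold higher against a floor of 3 counts over the control group (adjusted p = 0.00202). *Cxcl2* rose in UUO (log2 fold change 3.72, adjusted p = 0.00619) and stood at 2.49 in UIR (adjusted p = 0.0898), and its UUO call is lost by DESeq2 (adjusted p = 0.0678) and with a mitochondrial limit of 15% (adjusted p = 0.116). *Lcn2*, which tubules also make in injury, rose from 55.1 to 1182 and 2169 CPM (log2 fold changes 4.21 and 5.05), beside 361 and 368 CPM in free RNA of the injured kidneys.

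The adhesion genes *Icam1* and *Vcam1* rose in these cells in both models. *Icam1*, bound by neutrophil β2 integrins, stood at 3.71, 24.4 and 47.5 CPM in control, UIR and UUO (log2 fold changes 2.52 and 3.45), and *Vcam1* gave 4.004 and 4.55. *Icam1* was also higher in UUO than in UIR (log2 fold change 0.93, SE 0.21, adjusted p = 0.0461), a call that fails without any 1 of the 6 injured libraries and without N1 or AN2 (adjusted p up to 0.225), and at a mitochondrial limit of 15% (adjusted p = 0.0920). *Nfkbiz*, a regulator of chemokine genes, rose in both models (2.31 and 2.74), and *Ackr3*, a scavenger of CXCL12, fell in both (-2.07 and -1.69). *Abca1*, *Csf1*, *Cxcl12*, *Il17rc* and *Mfge8* also rose in UIR (log2 fold changes 0.46 to 1.41). *Cd36*, *Mertk* and *Mif* also fell in UIR (log2 fold changes -2.47 to -0.83). *Abca1*, *C3*, *Csf1*, *Cxcl12*, *Il17rc*, *Mfge8* and *Tyro3* also rose in UUO (log2 fold changes 0.45 to 2.28). *Cd36*, *Mertk* and *Mif* also fell in UUO (log2 fold changes -2.89 to -0.93). *Alox5ap*, *Axl*, *Il18*, *Pf4*, *Selplg* and *Tnf* rose in both models and had 0 to 3 control UMIs, so no fold is given. *Cxcl5* rose in UIR and had 0 control UMIs, so no fold is given. Of the genes that rose, *Alox5ap*, *Axl*, *C3*, *Cxcl12*, *Il18*, *Pf4*, *Selplg* and *Tnf* lay below their free RNA level in at least 1 of the models where the call was made. Calls lost when 1 library was left out, with those libraries, were *Abca1* in UIR (N2, AN1, UIR1, UIR2, adjusted p up to 0.0815), *Csf1* in UIR (UIR2, adjusted p = 0.0656), *Cxcl12* in UUO (UUO, adjusted p = 0.0641), *Cxcl5* in UIR (Ctrl, N1, N2, AN1, AN2, UIR2, adjusted p up to 0.0938), *Il18* in UIR (Ctrl, N1, AN1, UIR1, adjusted p up to 0.0712) and *Pf4* in UIR (Ctrl, N1, N2, AN2, UIR1, adjusted p up to 0.0931). When at most 15% mitochondrial UMIs were allowed, 9 rose and 4 fell in UIR and 13 rose and 4 fell in UUO. Calls in UIR lost at that limit, with the adjusted p by edgeR, were *Alox5ap* (0.118), *Csf1* (0.483), *Cxcl1* (0.159), *Cxcl5* (0.120), *Il17rc* (0.343), *Il18* (0.347) and *Pf4* (0.203). Calls in UUO lost at that limit, with the adjusted p by edgeR, were *C3* (0.359), *Cxcl12* (0.196), *Cxcl2* (0.116), *Il17rc* (0.450), *Il18* (0.128) and *Tyro3* (0.0891). *Selplg* could not be tested there. Other settings that ended a call gave adjusted p of 0.05 or more for *C3* (0.0756) and *Cxcl2* (0.0678) in UUO by DESeq2.

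In endothelial cells the P-selectin gene rose in both models. Of 29 list genes tested, 5 rose and 3 fell in UIR against control (beside 3.03% of all genes called), 10 rose and 5 fell in UUO against control (beside 11.7%), and 3 differed between UUO and UIR (beside 3.32%). *Selp*, which encodes P-selectin, rose from 1.19 ± 1.42 CPM in control to 32.1 ± 9.32 in UIR and 44.6 ± 14.4 in UUO (log2 fold changes 4.31 and 4.76, adjusted p = 0.000215 and 2.1e-05). Free RNA held it at 3.19 CPM in UUO. *Vcam1* rose in both models (log2 fold changes 1.37 and 1.33), and *Cxcl12*, the ligand of CXCR4, fell in both (-1.44 and -1.08). *Cxcl1* rose in UUO to 8.94 CPM, below its free RNA level of 10.999 CPM, and fails without Ctrl, AN1 or the library UUO (adjusted p up to 0.113). *Abca1* and *C3* also rose in UIR (log2 fold changes 1.34 to 4.75). *Cd36* and *Csf1* also fell in UIR (log2 fold changes -0.97 to -0.61). *Abca1*, *Ackr3*, *C3*, *Cd34*, *Nfkbiz* and *Stab1* also rose in UUO (log2 fold changes 0.65 to 4.28). *Cd36*, *Csf1*, *Gas6* and *Mif* also fell in UUO (log2 fold changes -1.11 to -0.45). *Lcn2* rose in both models and had 1 control UMI, so no fold is given. Of the genes that rose, *C3*, *Lcn2* and *Nfkbiz* lay below their free RNA level in at least 1 of the models where the call was made. Calls lost when 1 library was left out, with those libraries, were *Abca1* in UIR (N2, AN1, UIR1, UIR2, adjusted p up to 0.119), *Cd36* in UIR (UIR1, adjusted p = 0.0511), *Csf1* in UIR (N1, N2, AN2, UIR1, UIR2, adjusted p up to 0.151), *Gas6* in UUO (AN1, UUO2, adjusted p up to 0.127), *Mif* in UUO (Ctrl, N1, N2, AN1, AN2, UUO1, UUO2, adjusted p up to 0.181) and *Nfkbiz* in UUO (Ctrl, N1, AN1, UUO, UUO2, adjusted p up to 0.137). When at most 15% mitochondrial UMIs were allowed, 5 rose and 1 fell in UIR and 9 rose and 4 fell in UUO. Calls in UIR lost at that limit, with the adjusted p by edgeR, were *Cd36* (0.0723) and *Csf1* (0.0788). Calls in UUO lost at that limit, with the adjusted p by edgeR, were *C3* (0.0791) and *Mif* (0.120). Other settings that ended a call gave adjusted p of 0.05 or more for *Mif* (0.0523) in UUO with no filter beyond 10 UMIs.

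Of 7 genes for the clearance of dying cells tested in macrophages, 5 rose and 1 (*Cd36*) fell in UUO against control. In UIR against control 2 rose and 2 fell. Of 32 list genes tested, 6 rose and 5 fell in UIR against control (beside 16.1% of all genes called), and 12 rose and 2 fell in UUO against control (beside 13.3%). Between UUO and UIR 0 passed by edgeR (beside 3.48% of all genes), 12 had an unadjusted p under 0.05, and 3 passed by DESeq2. The bridging proteins *Gas6* and *Mfge8*, which tie dying cells to phagocytes, rose in UUO (log2 fold changes 1.04 and 3.60, adjusted p = 0.00220 and 0.00397), as did the cholesterol exporter *Abca1* (1.27, adjusted p = 0.000909). *Mfge8* stood at 122 CPM in UUO beside 91.4 CPM in free RNA. The receptor *Mertk* rose in UUO (1.03, adjusted p = 0.0435), with adjusted p up to 0.0987 when 1 library was left out, which ended the call for 9 of the 11 libraries. *Il1b* fell in UUO from 290.4 ± 71.5 to 173 ± 46.9 CPM (log2 fold change -0.88, adjusted p = 0.0143). *Cd36* fell in both models (-1.04 and -0.99). *C3*, *Gas6*, *Mfge8* and *Mif* also rose in UIR (log2 fold changes 0.75 to 2.48). *Alox5ap*, *Axl*, *Nfkbiz* and *Selplg* also fell in UIR (log2 fold changes -0.71 to -0.49). *C3*, *Il17ra*, *Mif*, *Pf4* and *Stab1* also rose in UUO (log2 fold changes 0.61 to 2.51). *Il17rc* and *Lcn2* rose in both models and had 0 control UMIs, so no fold is given. *Csf1* rose in UUO and had 2 control UMIs, so no fold is given. Of the genes that rose, *C3*, *Csf1*, *Il17rc*, *Lcn2* and *Mif* lay below their free RNA level in at least 1 of the models where the call was made. Calls lost when 1 library was left out, with those libraries, were *Alox5ap* in UIR (AN1, UIR1, adjusted p up to 0.0835), *Axl* in UIR (AN2, UIR1, adjusted p up to 0.0699), *Csf1* in UUO (N1, N2, AN1, AN2, UUO, UUO1, adjusted p up to 0.117), *Gas6* in UIR (UIR1, adjusted p = 0.0699), *Il17ra* in UUO (Ctrl, N1, N2, AN2, UUO, UUO2, adjusted p up to 0.106), *Mfge8* in UIR (Ctrl, N1, N2, AN1, AN2, UIR, UIR1, adjusted p up to 0.113), *Mif* in UUO (Ctrl, N2, AN1, UUO, UUO1, UUO2, adjusted p up to 0.0963), *Nfkbiz* in UIR (Ctrl, N1, N2, AN1, UIR, UIR1, adjusted p up to 0.116), *Pf4* in UUO (Ctrl, N1, N2, AN2, UUO, UUO2, adjusted p up to 0.160) and *Stab1* in UUO (N1, AN2, UUO2, adjusted p up to 0.142). When at most 15% mitochondrial UMIs were allowed, 5 rose and 2 fell in UIR and 10 rose and 2 fell in UUO. Calls in UIR lost at that limit, with the adjusted p by edgeR, were *Alox5ap* (0.0768), *Axl* (0.0901), *Gas6* (0.0614) and *Nfkbiz* (0.131). Calls in UUO lost at that limit, with the adjusted p by edgeR, were *Csf1* (0.116) and *Il17ra* (0.0986). Other settings that ended a call gave adjusted p of 0.05 or more for *Mertk* (0.0515) and *Pf4* (0.0502) in UUO with DESeq2 size factors and *Nfkbiz* (0.0772) in UIR with no filter beyond 10 UMIs.

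Stromal cells had 2 control libraries with at least 20 cells, Ctrl and AN2. A fit without either of them sets the injured libraries against 1 control library, which is assumed to vary like the other groups, so calls lost there cannot be read as weaker differences. Of 29 list genes tested, 2 rose in UIR against control (beside 4.51% of all genes called), 7 rose and 1 fell in UUO against control (beside 8.57%), and 1 was higher in UUO than in UIR (beside 0.595%). *Gas6* rose in UUO from 91.02 ± 43.5 CPM (SD, n = 2) to 432 ± 83.2 (SD, n = 3; log2 fold change 2.22, adjusted p = 0.00208). The alarmin *Il33* rose in UUO (log2 fold change 2.30, adjusted p = 0.0158), which fails without either control library (adjusted p up to 0.145). *Vcam1* also rose in UIR (log2 fold change 3.14). *Abca1*, *Axl* and *Vcam1* also rose in UUO (log2 fold changes 0.89 to 3.38). *Mertk* also fell in UUO (log2 fold change -1.27). *Il17ra* rose in both models and had 0 control UMIs, so no fold is given. *Icam1* rose in UUO and had 3 control UMIs, so no fold is given. Of the genes that rose, *Il17ra* lay below its free RNA level in at least 1 of the models where the call was made. Calls lost when 1 library was left out, with those libraries, were *Abca1* in UUO (Ctrl, AN2, adjusted p up to 0.148), *Axl* in UUO (Ctrl, AN2, UIR, UIR2, UUO1, UUO2, adjusted p up to 0.235), *Icam1* in UUO (AN2, UUO, UUO1, adjusted p up to 0.180), *Il17ra* in UIR (Ctrl, AN2, UIR, UIR1, UUO, UUO1, UUO2, adjusted p up to 0.277), *Mertk* in UUO (AN2, UUO, UUO1, UUO2, adjusted p up to 0.341), *Vcam1* in UIR (Ctrl, AN2, UIR, UIR1, UIR2, UUO2, adjusted p up to 0.238) and *Vcam1* in UUO (AN2, adjusted p = 0.148). When at most 15% mitochondrial UMIs were allowed no control library had 20 cells, so these calls against control could not be fitted there. Other settings that ended a call gave adjusted p of 0.05 or more for *Il17ra* (0.114) in UIR by DESeq2 and *Axl* (0.0528) and *Icam1* (0.0612) in UUO by DESeq2.

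**Figure D5:**
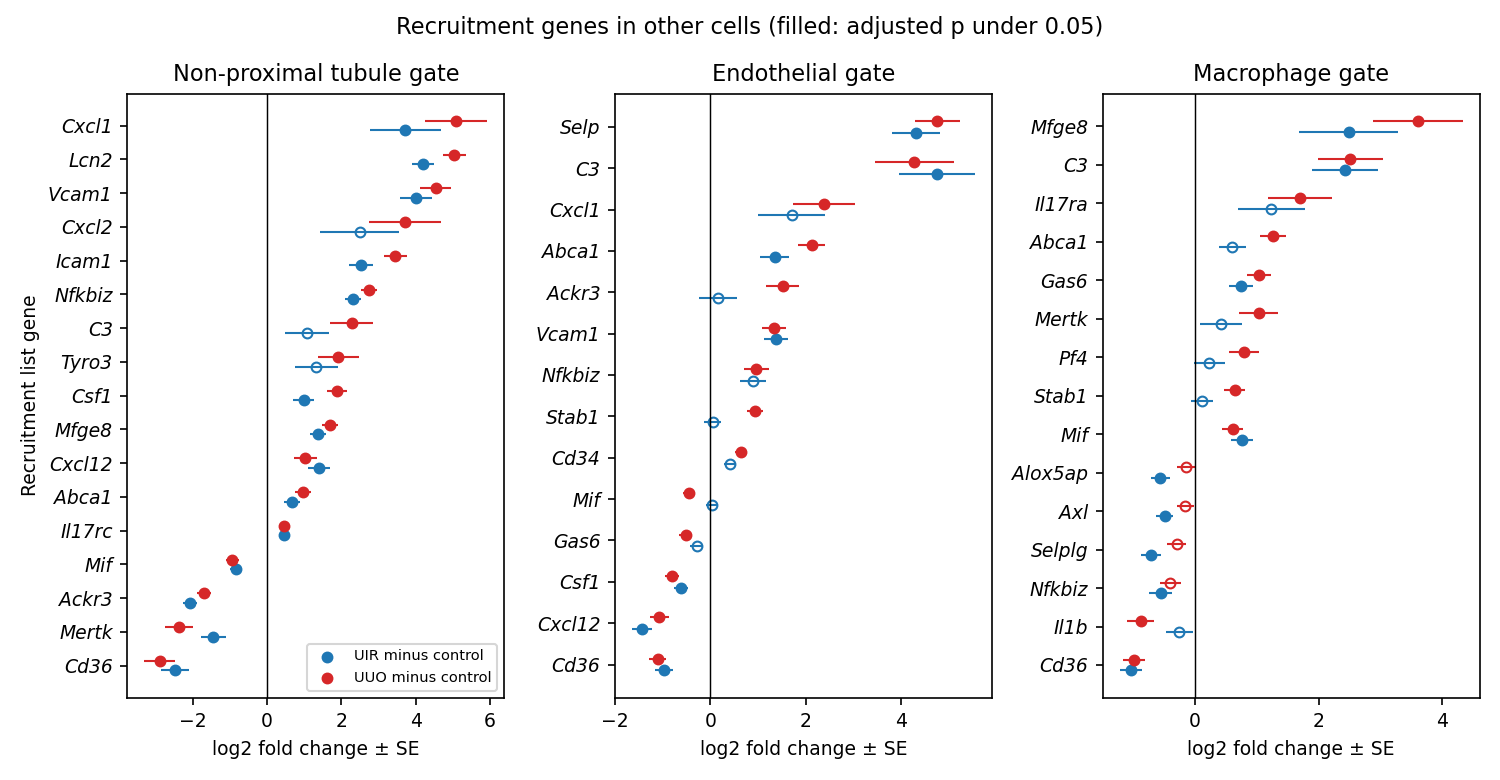
edgeR log2 fold changes with standard errors of recruitment genes that passed in either injury and had more than 3 control UMIs, UIR against control in blue and UUO against control in red, filled at an adjusted p under 0.05. *Cxcl1* and *Lcn2* lie farthest right in the tubule panel (5.10 and 5.05 in UUO), *Selp* in the endothelial panel (4.76) and *Mfge8* in the macrophage panel (3.60).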

How the data were processed

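Single-cell libraries of 5 control, 3 UIR and 3 UUO kidneys were prepared with a cold-active protease and version 3 of the 10x 3′ chemistry. The authors deposited raw UMI counts per gene and barcode, empty droplets included, made with Cell Ranger 3.1.0 and mm10 according to the submitters' processing notes. The study's correction for free RNA and its removal of 7.5% doublets are not in these counts. Neutrophils were chosen by the rule given above. The members, lists and tests were chosen with earlier results of these data known. UMIs were summed per library and tested with edgeR 4.0.16 (quasi-likelihood, filterByExpr, TMM, Benjamini-Hochberg over all genes tested) in R 4.3.3; shares were tested by exact permutation in SciPy 1.17.1. The fits were also run on simulated counts of an assumed spread, which does not test how well they suit these data. Libraries were the replicates, so p-values measure the spread between them. Gates were at least 2 of 3 *C1q* genes with a macrophage gene, or at least 2 monocyte, endothelial or stromal markers, or *Epcam* with fewer than 2 proximal tubule markers. Named genes were the rule's genes, the 15 leading ratios, up to 6 genes per list of at least 50 CPM and those at 0, tested recruitment genes and genes past the threshold; other list genes were named after their values were seen. *Itgam*, *Cebpd* and *C5* were not analysed here, and results for some other genes are not reported here. Alternatives covered barcode filters, the rule, thinning, doublets, DESeq2 1.42.0, size factors and leaving out each library.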

Additional observations from a re-analysis of the deposited data

Results flagged for a closer look

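As a share of immune barcodes the neutrophils lay below the control mean in all 3 UIR libraries and above it in all 3 UUO libraries. UUO exceeded UIR by 2.18 percentage points (exact permutation p = 0.1, the smallest that 3 against 3 libraries allow), and that the models lay on opposite sides of the control mean was not itself tested. The difference between UIR and control turned to 0.0185 percentage points without AN1, 0.0305 at a mitochondrial limit of 50% and 0.178 with the doublet score over 10 neighbours.

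In other cells the injuries differed for 6 recruitment genes by edgeR's test of UUO against UIR. The log2 fold change was -2.41 (adjusted p = 0.00145) for *Lcn2*, 1.36 (adjusted p = 0.0325) for *Ackr3* and 0.89 (adjusted p = 0.0135) for *Stab1* in endothelial cells. It was 1.71 (adjusted p = 0.0435) for *Pf4* and 0.93 (adjusted p = 0.0461) for *Icam1* in tubular cells outside the proximal tubule, and 1.37 (adjusted p = 0.0329) for *Il17ra* in stromal cells. In UUO free RNA held *Lcn2* at 368 CPM, above the 28.02 CPM of the endothelial cells, and *Pf4* at 84.9 CPM, above the 4.40 CPM of the tubular cells. With 1 library left out the highest adjusted p was 0.00885 for *Lcn2*, 0.114 for *Ackr3*, 0.0656 for *Stab1*, 0.167 for *Pf4*, 0.225 for *Icam1* and 0.131 for *Il17ra*. At a mitochondrial limit of 15% the edgeR adjusted p was 0.0922 for *Pf4* and 0.0920 for *Icam1*, so both calls were lost. *Pf4* was also lost with the replicate block (edgeR adjusted p = 0.0960) and with no filter beyond 10 UMIs (0.0659).

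Among barcodes with more than 30% mitochondrial UMIs, which were left out, 6 of 14876 barcodes from UIR (0.0403%, exact 95% binomial interval 0.0148% to 0.0878%) met the neutrophil rule. The values were 1 of 35528 barcodes from control (0.00281%, exact 95% binomial interval 7.1e-05% to 0.0157%) and 1 of 1302 barcodes from UUO (0.0768%, exact 95% binomial interval 0.00194% to 0.427%). The UIR share lay above that of control and below that of UUO, each of which rests on 1 barcode, and the UIR interval overlaps those of both. All 6 of UIR came from UIR1.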

How the results depend on the processing

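Leaving out 1 library at a time gave differences in the neutrophil share of kept barcodes of 0.160 to 0.252 (UIR minus control), 1.21 to 1.82 (UUO minus control) and 1.01 to 1.62 percentage points (UUO minus UIR). For immune barcodes they were -0.281 to 0.0185, 1.42 to 2.40 and 1.54 to 2.52. UIR minus control among immune barcodes changed sign to 0.0305 with a mitochondrial limit of 50% and to 0.178 with the doublet score over 10 neighbours. The other alternative share differences kept their direction, but UIR and control overlapped as a share of kept barcodes at 250 UMIs, at a mitochondrial limit of 15%, without proximal tubule cells and with the doublet score, and UUO and control as a share of immune barcodes at the 15% limit.

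Calls in neutrophils (2 higher and 14 lower in UUO) came to 0 to 4 higher and 14 to 19 lower without 1 UUO library. They were 36 higher and 25 lower without a filter, and 1 higher and 14 lower by DESeq2. Calls were also lost without UIR1, without UIR2 and with at least 20 neutrophils per library. Each of these settings keeps 1 UIR library, assumed to vary like the others, so no count is given. Alternatives added after seeing the data gave 1 higher and 14 lower without cells that showed endothelial, stromal, monocyte or proximal tubule markers as above. They gave 0 higher and 3 lower without the mitochondrial genes in the table, and 2 higher and 9 lower with a mitochondrial limit of 15%. They gave 2 higher and 16 lower without neutrophils of more than 7000 UMIs, and 4 higher and 15 lower with the replicate block. The causes were not tested.

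Recruitment calls over 4 pools came to 28 to 42 (UIR against control, 42 in all libraries), 49 to 59 (UUO against control, 61) and 1 to 7 (UUO against UIR, 6) without 1 library, and for UUO against UIR to 10 by DESeq2 and 13 with the replicate block. At a mitochondrial limit of 15% stromal cells had no fit against control, and the other 3 pools gave 26 calls instead of 40 in UIR, 42 instead of 53 in UUO, and all 4 gave 4 between the models. Deviations of same-numbered UIR and UUO libraries correlated at -0.08 to 0.34. The libraries were treated as unpaired, and these correlations cannot decide whether same-numbered libraries shared a batch. Among single recruitment genes 203 of 1586 alternative values lost the call, and 0 changed sign. Neutrophil numbers limit what could be detected: controls held 0 to 2 cells per library, and the UIR arm of the fit 84075 UMIs.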
